A study of Saccharomyces cerevisiae with 36 samples.

Results

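The hexose transporters Hxt1 to Hxt7 of *Saccharomyces cerevisiae* were followed at the transcript level in 12 groups of cultures. The 7 genes, *HXT1* to *HXT7*, were taken by name from a count table of 5697 genes, and all 7 passed the filter on low counts that left 5479 genes for testing. The cultures were of FY4, a prototrophic wild-type strain, and of a *gal80Δ* strain made in it. Each grew in minimal medium, after pre-growth in pyruvate, with either 0.1% fructose alone or 0.1% fructose with 0.9% palatinose, the mixture called fructose-palatinose here. Palatinose is a disaccharide of glucose and fructose that yeast cleaves with isomaltases. Cells were harvested in mid-log growth on fructose and then +10h and +16h later, with 3 biological replicates (A, B and C) per group and so 36 libraries of 3′ RNA tags. Gal80 holds the activator Gal4 inactive when galactose is absent, so *gal80Δ* cells express the *GAL* genes without galactose, in both media. The labels do not say whether the *gal80Δ* strain is 1 clone, nor whether 1 culture gave all 3 time points.

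Hexose transporters of this family move glucose, fructose and mannose across the plasma membrane by facilitated diffusion, and they differ in affinity. Hxt1 and Hxt3 have low affinity, Hxt2 and Hxt4 have intermediate to high affinity, and Hxt6 and Hxt7 have high affinity, while Hxt5 is known for its expression in slowly growing or starved cells. Without glucose, Rgt1 with its co-repressors Mth1 and Std1 represses many *HXT* genes, and the sensors Snf3 and Rgt2 trigger the loss of both co-repressors when sugar is present. At high glucose, Mig1 represses the genes of the transporters with higher affinity.

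Library totals lay between 6020770 and 11785148 counts (median 8282840.5), and 3 counts correspond to between 0.255 and 0.498 counts per 1000000 counts of a library (CPM). Over the 18 libraries of each strain, the deleted gene *GAL80* ranged from 45.9 to 117 CPM in the wild-type and from 8.10 to 17.2 CPM in *gal80Δ* cultures. *GAL1* ranged from 19.3 to 73.3 CPM and from 6611 to 19461 CPM, so every library followed its strain label. Whether the *GAL80* tags that remained lie outside the deleted part was not tested. The 4 markers of **a** mating type cells were present in every library, *MFA1*, *MFA2* and *STE2* at 65.9 CPM or more and *BAR1* at 8.79 CPM or more. Of the 3 α markers, *MF(ALPHA)2* and *MF(ALPHA)1* stayed at or below 1.99 and 17.7 CPM. The third, *STE3*, was also present in every library, from 3.19 to 25.9 CPM, a range that overlapped that of *BAR1*. The optical density at harvest differed between groups after mid-log, from 1.45 to 1.8 at +10h and, at +16h, from 1.8 to 2.1 in all groups but the wild-type in fructose-palatinose (2.6 to 2.8). Levels below are CPM, a member's share of all tags of a library. Since the tags come from the 3′ end, they do not grow with transcript length. Levels of different genes may thus be set side by side only as far as each counted interval holds the gene's 3′ end. The paper gave a default length to 3′ untranslated regions that had not been reported. *HXT5* and *HXT6* may be such genes. Their intervals match each other in the bases before the start codon and after the stop codon, unlike those of other members. Whether tags of either were missed was not tested, so their levels and shares beside other members are less certain. A lower level in all cells and a smaller share of cells with the transcript cannot be told apart in such bulk cultures.

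*HXT6* and *HXT7* are near copies, and the sequence decides how well their tags can be told apart. Both coding sequences have 1713 bases and differ at 3 positions, T1632C, G1666A and T1677C, with the base of *HXT6* first and positions counted from the A of the start codon, an identity of 99.8%. The last 60 coding bases, which hold 2 of the differences (in capitals), are shown because 3′ tags come from the end of a transcript.
HXT6 chrIV:1159608-1159667, minus strand: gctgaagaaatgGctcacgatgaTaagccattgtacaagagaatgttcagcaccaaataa
HXT7 chrIV:1154216-1154275, minus strand: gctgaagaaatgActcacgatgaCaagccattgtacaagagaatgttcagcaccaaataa
After the stop codon the first 10 bases are identical, identity over 50 bases is 98% and over 100 bases 89%, and over the last 300 bases of the counted intervals it is 82.4%. A tag that ends in the coding sequence can thus carry few or no differences, while a tag from farther downstream carries more. The split of tags between these copies depends on how the authors' counting treated such tags, so values of *HXT6* and *HXT7* apart are less certain than those of the other members. Every other pair of members has between 63.5% and 82.0% identity in the coding sequence and between 43.9% and 66.5% over the last 300 bases of the intervals.

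The members lie in groups on the R64 genome. *HXT7* (chromosome IV, counted interval 1154074 to 1156412), *HXT6* (1159483 to 1161345) and *HXT3* (1162818 to 1164762) follow each other on the minus strand, with 3679 and 1636 bases between coding sequences. *HXT4* (chromosome VIII, 286947 to 288918), *HXT1* (290828 to 293256) and *HXT5* (294544 to 296472) do the same, with 2101 and 2043 bases between them. *HXT2* stands alone on chromosome XIII (288049 to 289942, plus strand). No other counted gene overlaps an interval of the 7 members.

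In the 800 bases before the start codon, both strands were searched for letters bound by the family's known regulators, as a description of sequence and not of binding. The Rgt1 letters CGGANNA occurred 6, 3, 8, 3, 4, 1 and 2 times before *HXT1* to *HXT7* in that order, while 58.6% of the 5551 windows of this length hold 1 or more and only that of *HXT3* holds 8. Counted as Mig1 letters were the form CCGGGG, then the form with the second base changed, CTGGGG, then the form with the first base changed, which reads GCGGGG, and last the form with both of these bases changed, which reads GTGGGG. Together they occurred 2, 4, 2, 4, 1, 3 and 2 times, against 35.5% of windows with any, and 24 windows (0.432%) hold 4 or more. The stress element AGGGG occurred 4 times before each of *HXT6* and *HXT7*, as in 77 windows (1.39%), and 1, 0, 1, 1 and 2 times before *HXT1* to *HXT5*, with 48.6% of windows holding it. The letters of Mig1 and of the stress element can overlap, because both hold a run of G. CCAAT occurred 2, 0, 1, 1, 1, 3 and 2 times and is in 81.6% of windows. The Gal4 spacing, CGG and CCG with 11 bases between, occurred 2 times before *HXT3* and before none of the other members. It is in 4.79% of windows, and 12 windows (0.216%) hold 2 or more. Both matches before *HXT3* share bases with Rgt1 letters counted above.

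The sites before *HXT2* and *HXT4* are printed because these genes gave the clearest differences between media and between strains, described further on, with the motif in capitals in either orientation.
HXT2 Rgt1 chrXIII:287489-287515, read along the coding strand, 574 bases before the start: caaaatataaTTTTCCGtgaaatagat
HXT2 Rgt1 chrXIII:287639-287665, read along the coding strand, 424 bases before the start: cttatgaatcCGGAGAAaagcggggtc
HXT2 Rgt1 chrXIII:287672-287698, read along the coding strand, 391 bases before the start: ctcaataaaaTTTTCCGaaatcctttt
HXT2 Mig1 chrXIII:287302-287327, read along the coding strand, 762 bases before the start: agaaaaagaaCCGGGGatgaataata
HXT2 Mig1 chrXIII:287565-287590, read along the coding strand, 499 bases before the start: tcatagacagCCCCGCagcttcactt
HXT2 Mig1 chrXIII:287648-287673, read along the coding strand, 416 bases before the start: ccggagaaaaGCGGGGtcttttaact
HXT2 Mig1 chrXIII:287908-287933, read along the coding strand, 156 bases before the start: acctagcaacCCCCACcaaacttgtc
HXT4 Rgt1 chrVIII:289445-289471, read along the coding strand, 644 bases before the start: ttctttcggtTTATCCGctttcttcca
HXT4 Rgt1 chrVIII:289220-289246, read along the coding strand, 419 bases before the start: aaaaacacttCGGATAAaaacggtcaa
HXT4 Rgt1 chrVIII:289091-289117, read along the coding strand, 290 bases before the start: taagaaacaaCGGAGGAaaactcaaat
HXT4 Mig1 chrVIII:289294-289319, read along the coding strand, 493 bases before the start: ttcccaccccCCCCGGttttttttcc
HXT4 Mig1 chrVIII:289262-289287, read along the coding strand, 461 bases before the start: ccccatattcCCCCGCctgcaggaaa
HXT4 Mig1 chrVIII:289046-289071, read along the coding strand, 245 bases before the start: gtttatgaagGTGGGGtggtaagaaa
HXT4 Mig1 chrVIII:288982-289007, read along the coding strand, 181 bases before the start: agcttcaacaCTGGGGaatgaataat
In the window of *HXT2*, 1 Rgt1 match and 1 Mig1 match overlap in their printed flanks, 416 to 430 bases before the start. The coordinates are those of R64.

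In mid-log growth on fructose, *HXT7* and *HXT2* held nearly all of the members' transcripts. The wild-type had 3645, 2876 and 2224 CPM of *HXT7* in replicates A, B and C in fructose and, with palatinose, 2956, 2573 and 1870.2 CPM. *HXT2* had 891, 901 and 667 CPM in fructose and, with palatinose, 755, 878 and 1149 CPM. In both media every library had more *HXT7* than *HXT2*, and more *HXT2* than any of the remaining members. Of the 7 members' summed tags, *HXT7* made up 75.5% ± 2.28 and *HXT2* 21.5% ± 2.16 in wild-type fructose cultures (SD, n = 3). In *gal80Δ* fructose cultures these shares were 85.2% ± 0.434 and 12.1% ± 0.677.

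The remaining 5 members were low at mid-log. *HXT4*, *HXT6* and *HXT3* had 48.8 ± 12.8, 36 ± 12 and 23.7 ± 4.09 CPM in wild-type fructose cultures (SD, n = 3). The range of *HXT6* overlapped those of *HXT4* and *HXT3*, which were apart from each other. In *gal80Δ* cultures *HXT6* (29.5 ± 0.631 CPM in fructose) lay above *HXT3* and *HXT4*, whose ranges overlapped. *HXT5* had between 0.964 and 3.55 CPM over the 12 mid-log libraries. *HXT1*, which encodes a transporter of low affinity, was last in every group, from 1 to 39 counts per library and from 0.0886 to 4.18 CPM over all 36. In mid-log *gal80Δ* libraries it had from 1 to 8 counts, so small differences of *HXT1* there were not detectable at this depth.

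**Figure D1:**
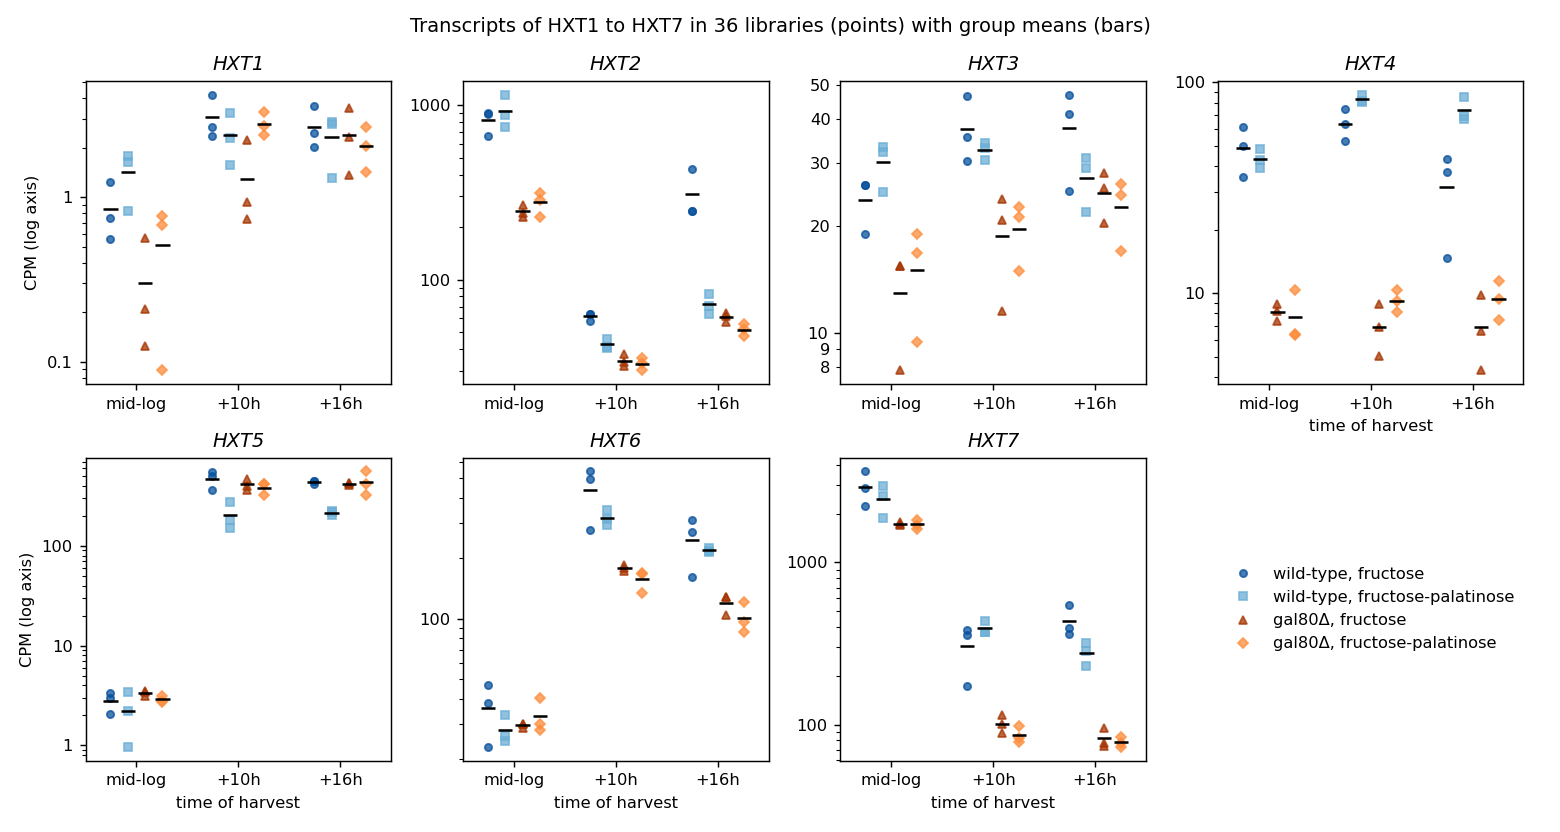
CPM (log axes, scaled for each gene) of the 7 members in the 36 libraries by time of harvest, 1 point per library, colour and shape for strain and medium, with the mean of each group of 3 as a bar. *HXT2* and *HXT7* fell between mid-log and +10h in all 4 series, *HXT5* and *HXT6* rose, and *HXT4* lay lower in *gal80Δ* cultures than in the wild-type at every time.

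Between mid-log and +10h, 5 of the 7 members passed the thresholds in each of the 4 series of strain and medium, 3 of them higher and 2 lower at +10h. Of all genes tested, 55.2% passed in wild-type fructose cultures, 45.7% in wild-type fructose-palatinose, 52.7% in *gal80Δ* fructose and 50.6% in *gal80Δ* fructose-palatinose cultures. To pass, a gene had to change by more than 0.5 on the log2 scale with an adjusted p under 0.05 by edgeR's quasi-likelihood test, with Benjamini-Hochberg adjustment over all genes tested. The median log2 fold changes of the 7 members were 0.29, 0.51, 0.26 and 0.09 in that order, against 0.02, 0.02, 0.06 and 0.05 for all genes.

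*HXT5* gave the highest rise of the family. In wild-type fructose cultures it went from 3.33, 2.97 and 2.06 CPM to 553, 504 and 362 CPM. In *gal80Δ* fructose cultures it went from 3.09, 3.55 and 3.41 to 401, 473 and 363 CPM. All +10h libraries lay far above all mid-log libraries, in both strains and media. The log2 fold changes were 7.06 ± 0.29 (SE, adjusted p = 1.8e-18) in wild-type fructose, 6.27 ± 0.29 in wild-type fructose-palatinose, 6.66 ± 0.28 in *gal80Δ* fructose and 6.75 ± 0.28 in *gal80Δ* fructose-palatinose cultures.

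*HXT2* fell over the same interval. In wild-type fructose cultures it was at 63.5, 63.4 and 57.6 CPM at +10h, and in wild-type fructose-palatinose cultures at 41.1, 45.7 and 40.5 CPM. In *gal80Δ* cultures it went from 230.0, 242 and 269.5 CPM to 33.6, 32 and 37.3 CPM in fructose. No +10h library reached the lowest mid-log library of its series. The log2 fold changes were -4.10 ± 0.20 (SE, adjusted p = 7.4e-17) and -4.69 ± 0.21 in the wild-type in fructose and fructose-palatinose, and -3.13 ± 0.19 and -3.36 ± 0.19 in *gal80Δ* cultures.

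*HXT7* and *HXT6*, the genes of the near-identical high-affinity transporters, moved in opposite directions. *HXT7* had 358, 172 and 385 CPM at +10h in wild-type fructose cultures and 88.4, 101 and 114 CPM in *gal80Δ* fructose cultures, below every mid-log library. Its log2 fold changes were -3.60 ± 0.27 (SE, adjusted p = 1.2e-12) and -2.93 ± 0.26 for the wild-type, and -4.38 ± 0.28 and -4.61 ± 0.28 in *gal80Δ* cultures, with fructose first. *HXT6* went from 38.3, 23 and 46.8 to 541, 276 and 495 CPM in wild-type fructose cultures and from 29.8, 29.9 and 28.7 to 185, 172 and 179 CPM in *gal80Δ* fructose cultures. Groups did not overlap. Its log2 fold changes were 3.26 ± 0.27 (SE, adjusted p = 8.7e-12) and 3.24 ± 0.27 for the wild-type and 2.33 ± 0.26 and 1.95 ± 0.25 in *gal80Δ* cultures.

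The sum of the tags of *HXT6* and *HXT7* does not depend on how counted tags were split between them, though it would depend on the counting if tags that match both genes were dropped. It fell in all 4 series. Its log2 fold changes from mid-log to +10h were -2.33 ± 0.23 (SE, adjusted p = 3.4e-10 by edgeR) and -2.09 ± 0.22 for the wild-type, and -2.93 ± 0.23 and -3.14 ± 0.23 in *gal80Δ* cultures, with fructose first. *HXT6* made up between 0.793% and 2.44% of the sum in the 12 mid-log libraries (median 1.59%), between 41.8% and 68.2% in the 12 libraries at +10h (median 61.4%) and between 22.7% and 63.3% at +16h (median 51.2%). The exact binomial 95% intervals of these shares are at most 0.466, 4.53 and 5.96 percentage points wide, and cover counting error only. In the wild-type in fructose the share was 60.2, 61.6 and 56.3% at +10h and 42.8, 43.9 and 22.7% at +16h, where replicate C stood below the others. The upstream windows of the genes are identical over only the 84 bases before the start and have 52.6% identity over 800 bases.

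**Figure D2:**
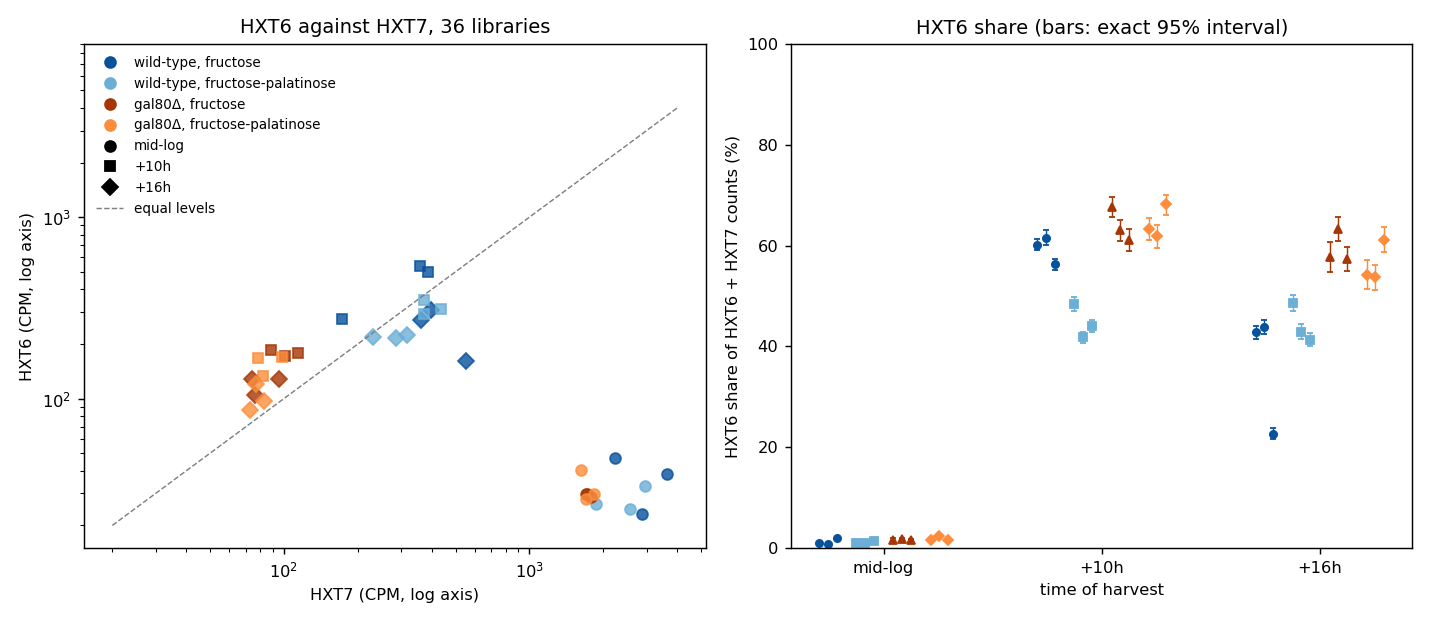
Left, CPM of *HXT6* against *HXT7* in the 36 libraries on log axes, with colour for strain and medium, shape for time and a dashed line at equal levels. Right, the share of *HXT6* in the summed counts of both genes per library in percent, with exact binomial 95% intervals as bars. Mid-log libraries sit at the lower right, at shares of 0.793% to 2.44%, and all later libraries lie between 22.7% and 68.2%.

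*HXT1*, *HXT3* and *HXT4* moved less. *HXT1* went from 0.555, 0.742 and 1.24 to 2.36, 4.18 and 2.67 CPM in wild-type fructose cultures, a low level throughout. It passed there (log2 fold change 1.44, adjusted p = 0.011) and in *gal80Δ* cultures in fructose (1.79, adjusted p = 0.022) and fructose-palatinose (2.12, adjusted p = 0.00084). All mid-log *gal80Δ* libraries had only 1 to 8 counts of *HXT1*, below the filter's cutoff of 1.21 CPM. *HXT1* entered the test through groups where it was higher, so the size of its rise in *gal80Δ* cultures is uncertain in both media. Replicates A and B of wild-type fructose cultures at mid-log (0.555 and 0.742 CPM) were below this cutoff too. The size of the rise there is thus uncertain as well. *HXT4* had 48.1, 42.6 and 39.1 CPM at mid-log and 80.04, 81.6 and 87 CPM at +10h in wild-type fructose-palatinose cultures, without overlap, and passed only in this series of the 4 (0.67 ± 0.27 SE, adjusted p = 0.034). *HXT3* had 26.1, 26.1 and 19 and then 35.7, 46.6 and 30.4 CPM in wild-type fructose cultures, and its log2 fold changes in the 4 series lay between -0.14 and 0.29, with adjusted p of 0.29 or more. The rise of *HXT1* in wild-type fructose cultures was lost without replicate B of +10h (adjusted p = 0.058), that in *gal80Δ* fructose cultures, from 1 to 5 counts at mid-log, without the A or the B libraries of all groups (0.95 without B, and 2.93 without C), and the rise of *HXT4* without the libraries of any 1 letter.

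CPM are scaled to the library total and the fold changes by TMM, and the choice mattered most for this interval. With library size alone, the all-gene median from mid-log to +10h was higher on the log2 scale by 0.36 (fructose) and 0.26 (fructose-palatinose) for wild-type cultures and by 0.27 and 0.29 for *gal80Δ* cultures. None of the 62 calls among the 217 tests of members (7 members in 31 contrasts) turned its direction, but *HXT3* in wild-type fructose cultures then passed (0.67, adjusted p = 0.034). Calls below are relative to the TMM scale.

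The family's total fell as its make-up changed. The summed level of the 7 members was 3847 ± 835 CPM at mid-log in wild-type fructose cultures, 1381 ± 249 CPM at +10h and 1500.1 ± 99.8 CPM at +16h (SD, n = 3). In *gal80Δ* fructose cultures it was 2037 ± 61.1, 754 ± 51.9 and 717 ± 34 CPM. The later libraries lay below every mid-log library of their strain. At +10h the order of levels in wild-type fructose cultures was *HXT5*, *HXT6* and *HXT7* with overlapping ranges, then *HXT4* and *HXT2* with overlapping ranges, then *HXT3* and *HXT1*. In wild-type fructose-palatinose cultures it was *HXT7*, *HXT6*, *HXT5*, *HXT4*, *HXT2*, *HXT3* and *HXT1*, with no overlap between neighbours. In all 4 later *gal80Δ* groups it was *HXT5*, *HXT6*, *HXT7*, *HXT2*, *HXT3*, *HXT4* and *HXT1*, again with no overlap. *HXT5* made up 54.6% ± 3.92 of the family's tags in *gal80Δ* fructose cultures at +10h and 61.6% ± 4.82 in fructose-palatinose at +16h, against 35% ± 9.67 and 24.2% ± 1.82 in the wild-type.

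**Figure D3:**
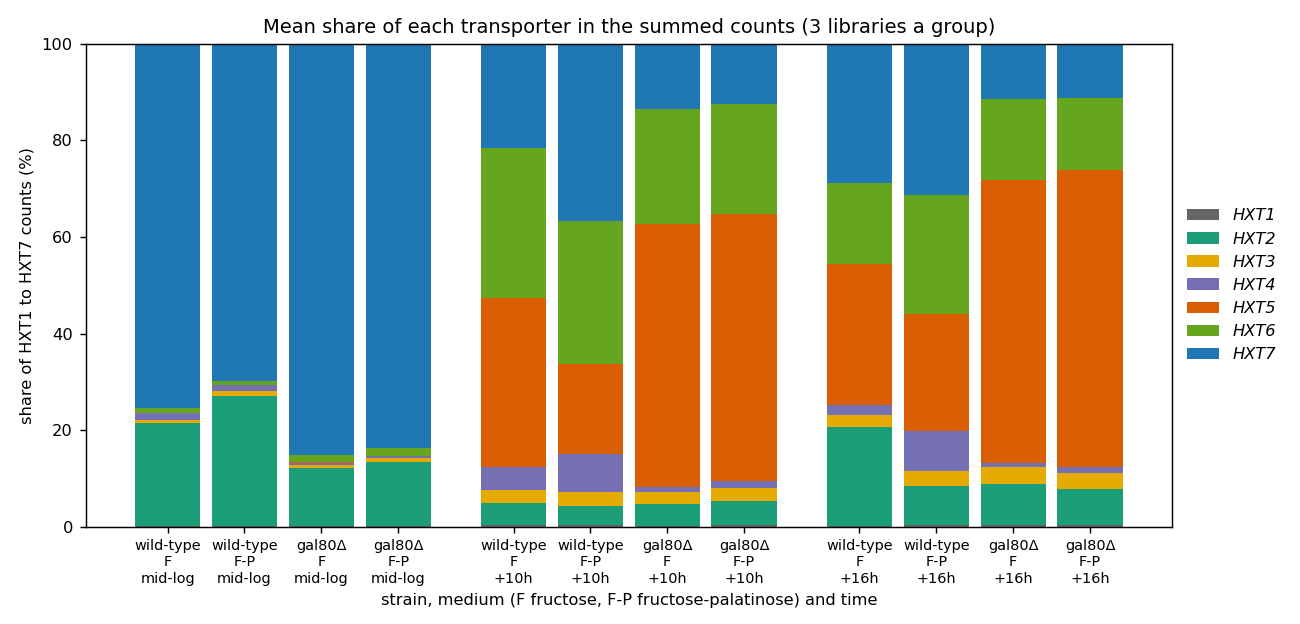
Mean share of each member in the summed tags of *HXT1* to *HXT7*, in percent, for the 12 groups (n = 3), stacked to the whole. *HXT7* and *HXT2* fill nearly all of the mid-log bars, and *HXT5* is the largest share in the 4 later *gal80Δ* groups.

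Between +10h and +16h, 3 members passed in wild-type fructose cultures (11.1% of all genes tested) and 1 in each of the other series, *HXT2*, where 1.59% of genes passed in wild-type fructose-palatinose, 9.27% in *gal80Δ* fructose and 8.6% in *gal80Δ* fructose-palatinose cultures. *HXT2* returned to 247, 247 and 431 CPM in wild-type fructose cultures, above all 3 libraries at +10h and with replicate C highest. It was at 63, 82.9 and 70.2 CPM in wild-type fructose-palatinose, 64.3, 57.4 and 62 CPM in *gal80Δ* fructose and 51.9, 55.3 and 47.3 CPM in *gal80Δ* fructose-palatinose cultures. Its log2 fold change was 2.41 ± 0.19 (SE, adjusted p = 1.8e-10) in wild-type fructose cultures, and 0.77 ± 0.18, 0.80 ± 0.18 and 0.66 ± 0.18 in the others in that order, with adjusted p of 0.017, 0.0033 and 0.016.

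In wild-type fructose cultures *HXT4* and *HXT6* fell over the same hours. *HXT4* went from 63.2, 52.8 and 74.2 to 37.5, 43.2 and 14.7 CPM (-0.93 ± 0.27 SE, adjusted p = 0.018) and *HXT6* from 541, 276 and 495 to 269.9, 309 and 162 CPM (-0.77 ± 0.24 SE, adjusted p = 0.031). *HXT4* did not overlap between the times, whereas *HXT6* did. Both calls were lost without replicate C of +16h. That library had the lowest *HXT4* and *HXT6*, the highest *HXT2* and *HXT7* and, at 2.1, the highest optical density of its group. Without it the log2 fold changes were -0.59 (adjusted p = 0.13) for *HXT4* and -0.55 (adjusted p = 0.18) for *HXT6*. Without the B libraries of all groups the fall of *HXT6* was -1.22. The rises of *HXT2* outside wild-type fructose cultures were each lost without the A or the B libraries of all groups, and in wild-type fructose-palatinose cultures also without the C libraries.

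Palatinose beside fructose left the members without a call at mid-log. In the wild-type none passed at mid-log (0.128% of all genes did), 1 passed at +10h (11.6%) and 3 at +16h (6.19%). For mid-log the edgeR test had 0 members with an unadjusted p below 0.05, and DESeq2 called 0.

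*HXT2* gave the largest of these differences at +16h, with 247, 247 and 431 CPM in fructose and 63, 82.9 and 70.2 CPM with palatinose, far apart. Its log2 fold change was -2.05 ± 0.18 (SE, adjusted p = 1.6e-09), called without the libraries of any 1 letter. *HXT4* was higher with palatinose at +16h, at 67.2, 69.1 and 85.3 against 37.5, 43.2 and 14.7 CPM without overlap (1.28 ± 0.27 SE, adjusted p = 0.0023). At +10h its difference did not pass (0.50 ± 0.26, adjusted p = 0.20), and *HXT2* did not either (-0.41 ± 0.18, adjusted p = 0.12), though with library size alone it did (-0.54, adjusted p = 0.039).

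*HXT5* was lower with palatinose at both later times in the wild-type. At +10h it had 553, 504 and 362 CPM in fructose and 277, 183 and 151 CPM with palatinose (-1.10 ± 0.21 SE, adjusted p = 0.00064). At +16h it had 443, 451 and 418 and 217, 204 and 222 CPM (-0.98 ± 0.21 SE, adjusted p = 0.0029). The groups did not overlap at either time. The call at +10h was lost without the B libraries of all groups, that at +16h without the A or the B libraries, and that of *HXT4* at +16h without the A libraries (0.81, still called, without the C libraries). Optical density moved with these differences, at 1.85 to 2.1 in fructose and 2.6 to 2.8 in fructose-palatinose at +16h, and its part in them was not tested.

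In *gal80Δ* cultures palatinose gave no member call in any of the 3 comparisons. Of all genes tested, 0.128%, 0.146% and 0.128% passed at mid-log, +10h and +16h. Of the 21 tests of members by edgeR, 1 had an unadjusted p below 0.05, and DESeq2 called 0. *HXT5* was at 425, 405 and 430.0 CPM in fructose and 325, 557 and 418 CPM with palatinose at +16h, with overlapping ranges, and *HXT2* at 64.3, 57.4 and 62 and 51.9, 55.3 and 47.3 CPM, without overlap but with a log2 fold change of -0.25 ± 0.18 (SE, adjusted p = 1.0).

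Whether palatinose acted differently in the 2 strains was tested itself, as an interaction. It passed for *HXT2* at +16h alone, where palatinose lowered *HXT2* in the wild-type more than in *gal80Δ* cultures (1.81 ± 0.25 SE, adjusted p = 2.8e-05), called without the libraries of any 1 letter. Of all genes tested, 1.53% passed at +16h, 0.803% at +10h and 0% at mid-log. For *HXT5* the interaction was 0.94 ± 0.30 at +10h (adjusted p = 0.14) and 1.02 ± 0.30 at +16h (adjusted p = 0.084). That at +16h passed with DESeq2 and with a fit of only the groups compared, so *HXT5* lies near the threshold of this test.

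The strains differed in the level of most members. In fructose 4, 5 and 4 of the 7 members passed at mid-log, +10h and +16h, where 7.15%, 7.5% and 5.97% of all genes did. In fructose-palatinose 3, 5 and 5 members passed, against 7.99%, 14.3% and 12.8% of all genes. Of these 26 calls, 24 were lower in *gal80Δ* cultures. With library size alone, the all-gene median of the strain comparison in fructose-palatinose moved up by 0.12 at +10h and by 0.12 at +16h. In this medium the strains also differed in optical density at harvest. It was 1.65 to 1.8 in the wild-type and 1.55 to 1.65 in *gal80Δ* cultures at +10h, and 2.6 to 2.8 and 1.9 to 2.1 at +16h. The part of optical density in the strain differences was not tested.

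*HXT4* was lower in *gal80Δ* cultures in all 6 comparisons. In fructose it had 61, 49.8 and 35.5 CPM in the wild-type and 8.91, 7.41 and 8.18 CPM in *gal80Δ* cultures at mid-log. At +10h it had 63.2, 52.8 and 74.2 and 6.91, 8.88 and 5.04 CPM. At +16h it had 37.5, 43.2 and 14.7 and 6.64, 4.30 and 9.75 CPM. No *gal80Δ* library reached a wild-type library at any time. The log2 fold changes were -2.62 ± 0.30 (SE, adjusted p = 2.7e-07), -3.14 ± 0.31 and -2.27 ± 0.31 in fructose and -2.60 ± 0.29, -3.29 ± 0.30 and -3.09 ± 0.30 in fructose-palatinose, and all were called without the libraries of any 1 letter.

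*HXT2* was lower in *gal80Δ* cultures in 5 of the 6 comparisons. In mid-log fructose cultures the wild-type libraries lay at 891, 901 and 667 CPM and the *gal80Δ* libraries at 230.0, 242 and 269.5 CPM, apart (-1.76 ± 0.18 SE, adjusted p = 3.7e-08). In fructose at +16h they lay at 247, 247 and 431 and 64.3, 57.4 and 62 CPM (-2.40 ± 0.19 SE, adjusted p = 5.1e-11). In between, at +10h, the difference was -0.79 ± 0.18 (SE, adjusted p = 0.0052). In fructose-palatinose the log2 fold changes were -1.82 ± 0.18, -0.49 ± 0.18 and -0.60 ± 0.18, and that at +10h did not pass (adjusted p = 0.062). The calls in fructose at +10h and in fructose-palatinose at +16h were lost without the A or the B libraries of all groups.

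*HXT7* passed in 5 of the 6 comparisons and *HXT6* in the 4 later ones. *HXT7* had 371, 436 and 372 CPM in wild-type and 98.5, 82.4 and 78.3 CPM in *gal80Δ* fructose-palatinose cultures at +10h, without overlap (-2.31 ± 0.25 SE, adjusted p = 6.0e-08). In fructose its log2 fold changes were -0.79 ± 0.24, -1.57 ± 0.25 and -2.48 ± 0.26, and in fructose-palatinose at mid-log -0.63 ± 0.24 (adjusted p = 0.090, not called) and at +16h -1.96 ± 0.25. *HXT6* had 349, 313 and 294 and 169.7, 134 and 168 CPM at +10h in fructose-palatinose (-1.14 ± 0.24 SE, adjusted p = 0.0013). At mid-log its strains overlapped and its log2 fold changes were -0.33 ± 0.25 in fructose and 0.14 ± 0.25 in fructose-palatinose. The summed tags of the copies gave -0.78 ± 0.22, -1.38 ± 0.22 and -1.82 ± 0.22 in fructose, all called, and -0.62 ± 0.22 (adjusted p = 0.062, not called), -1.67 ± 0.22 and -1.59 ± 0.22 in fructose-palatinose. The mid-log call of *HXT7* in fructose was lost without the A (-0.51) or the B libraries of all groups, and the call of *HXT6* in fructose at +16h without the A libraries.

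*HXT3* was lower in *gal80Δ* cultures in 4 comparisons. Its level was 25, 32.3 and 33.5 CPM in wild-type and 16.7, 9.42 and 18.9 CPM in *gal80Δ* fructose-palatinose cultures at mid-log, without overlap (-1.10 ± 0.24 SE, adjusted p = 0.0035). At +16h its ranges overlapped in both media, and neither difference passed (adjusted p = 0.089 in fructose and 0.28 in fructose-palatinose). Each of its 4 calls was lost without the A or the B libraries of all groups, that at mid-log in fructose also without the C libraries, and with library size alone *HXT3* did not pass in fructose at mid-log or in fructose-palatinose at +10h (adjusted p = 0.060 in both). In fructose at +10h the call was lost without replicate B of the wild-type (-0.83, adjusted p = 0.068), and in fructose at +16h *HXT3* passed without replicate C of the wild-type (-0.89, adjusted p = 0.034).

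*HXT5* was the member higher in *gal80Δ* cultures, in fructose-palatinose at +10h (0.79 ± 0.21 SE, adjusted p = 0.0083) and +16h (0.89 ± 0.21 SE, adjusted p = 0.0035). At +16h it had 217, 204 and 222 CPM in the wild-type and 325, 557 and 418 CPM in *gal80Δ* cultures, without overlap. In fructose its strains lay close, at 443, 451 and 418 and 425, 405 and 430.0 CPM at +16h, with log2 fold changes between -0.15 and 0.25 over the 3 times, none called. Both calls were lost without the B libraries of all groups. *HXT1* passed in none of the 6 comparisons, where 3 edgeR tests had an unadjusted p below 0.05 and DESeq2 called 0.

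**Figure D4:**
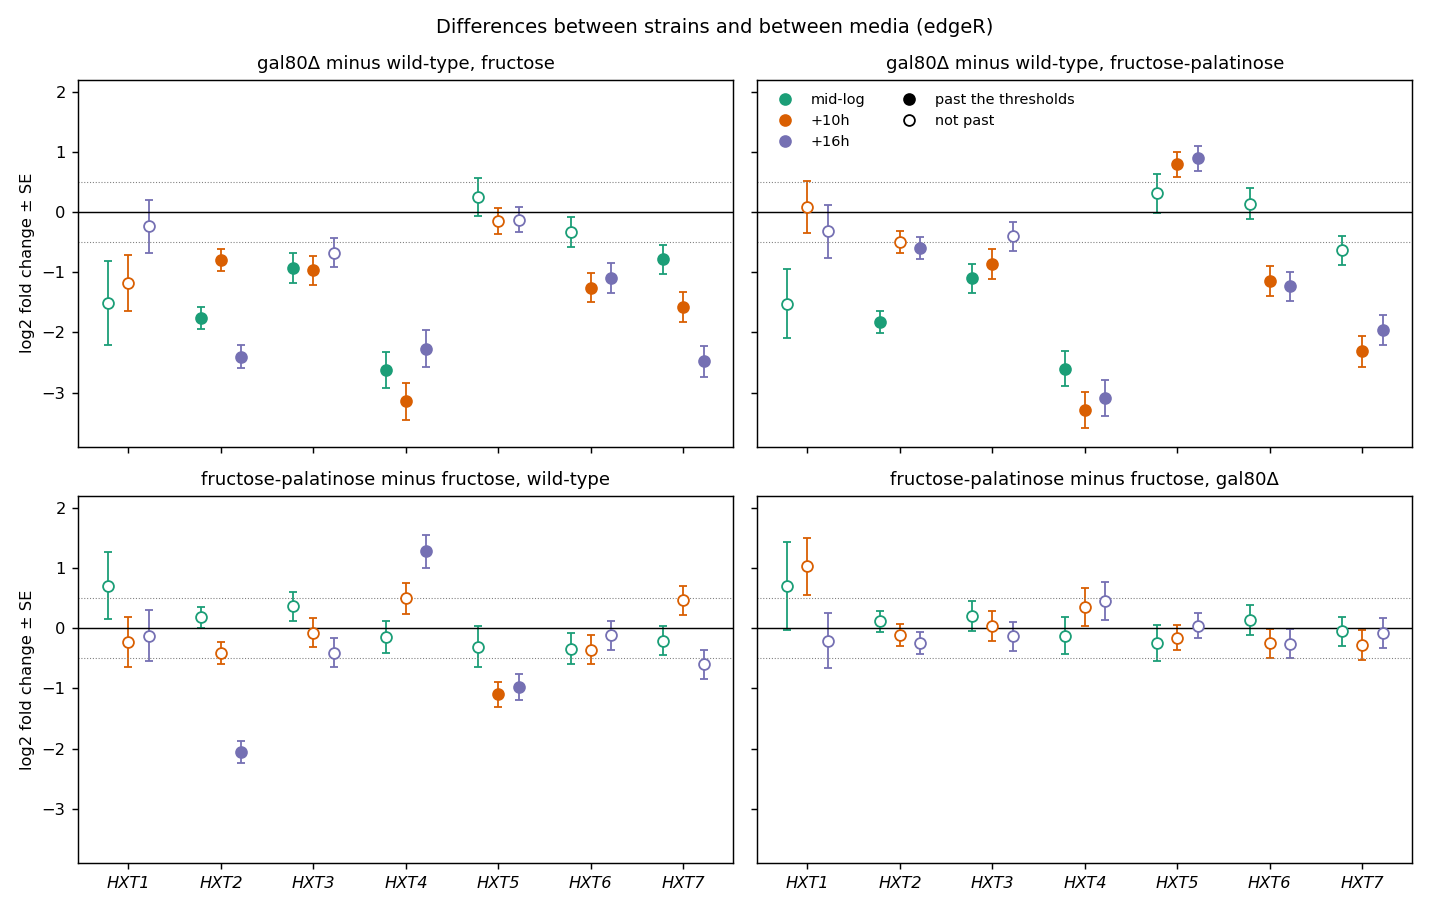
Log2 fold changes of the 7 members with SE as bars, filled where called and open where not, for *gal80Δ* against wild-type cultures and for fructose-palatinose against fructose cultures at the 3 times. *HXT4* sits between -3.29 and -2.27 in the strain comparisons, and the palatinose comparisons of *gal80Δ* cultures have no filled point.

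Where members differed between strains or media, whether they also changed differently over time was tested in the same fit, for 56 combinations of member, interval and strain or medium. Of these, 5 passed. Between the media, 3.1% and 1.41% of all genes passed for the intervals before and after +10h in the wild-type and 0.0183% and 0% in *gal80Δ* cultures. Between the strains, 0.621% and 0.657% passed in fructose and 2.61% and 0.219% in fructose-palatinose. Between +10h and +16h *HXT2* rose less in fructose-palatinose than in fructose in the wild-type (-1.64 ± 0.25 SE, adjusted p = 0.00079) and less in *gal80Δ* than in wild-type fructose cultures (-1.61 ± 0.26 SE, adjusted p = 0.0018). Between mid-log and +10h in fructose-palatinose, *HXT2* fell less in *gal80Δ* than in wild-type cultures (1.33 ± 0.25 SE, adjusted p = 0.0015). *HXT7* fell more (-1.68 ± 0.34 SE, adjusted p = 0.0030) and *HXT6* rose less (-1.28 ± 0.35 SE, adjusted p = 0.040). The difference of *HXT6*, and that of *HXT2* between the strains in fructose, were lost whichever letter's libraries were left out. The others of the 5 were called in only 1 of the 3 such fits. For mid-log to +10h in fructose-palatinose, the summed tags of *HXT6* and *HXT7* gave a strain difference of -1.05 ± 0.30 (adjusted p = 0.057, not called).

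Of the other 10 members of the family, 5 had enough counts to be tested, and *GAL2* and *HXT8* stood out from them. *GAL2*, the galactose permease, which also carries glucose and is a Gal4 target, was higher in *gal80Δ* cultures in all 6 strain comparisons, by log2 fold changes from 6.89 to 9.36. It had 17.5 ± 1.54 CPM in wild-type and 3969 ± 246 CPM in *gal80Δ* fructose cultures at mid-log, and 21 ± 5.23 and 13407 ± 2714 CPM at +10h (SD, n = 3). In every *gal80Δ* group its mean thus lay above the sum of *HXT1* to *HXT7*, and in every wild-type group below it.

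*HXT8*, a little studied member of the family, was higher with palatinose in both strains at all 3 times. The authors list it among genes beside a *MAL* gene, and they redrew its counted 3′ end from the reads of this experiment. Whether this position has a part in its difference was not tested. In the wild-type it had 7.66 ± 1.22 CPM in fructose and 172 ± 19.96 CPM with palatinose at +10h (SD, n = 3), and in *gal80Δ* cultures 5.57 ± 1.46 and 44.2 ± 1.98 CPM. The log2 fold changes were 3.70 ± 0.20, 4.61 ± 0.19 and 4.87 ± 0.19 for the wild-type and 3.49 ± 0.19, 2.93 ± 0.19 and 2.09 ± 0.19 in *gal80Δ* cultures. The interaction was called at +10h (-1.67 ± 0.26 SE, adjusted p = 0.00026) and +16h (-2.78 ± 0.26 SE, adjusted p = 9.3e-09). Calls were fewer for the other 3, at 9 of the 31 contrasts for *HXT13*, 2 for *HXT10* and 1 for *HXT9*, all at low levels. *HXT13* was higher with palatinose in the wild-type at +16h (2.91 ± 0.47 SE, adjusted p = 7.6e-05). Over the 36 libraries it ranged from 0 to 10.9 CPM, with a median of 0.55 CPM, below the filter's cutoff of 1.21 CPM. *HXT13* entered the test through the groups where it was higher, so the size of this difference is uncertain.

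**Figure D5:**
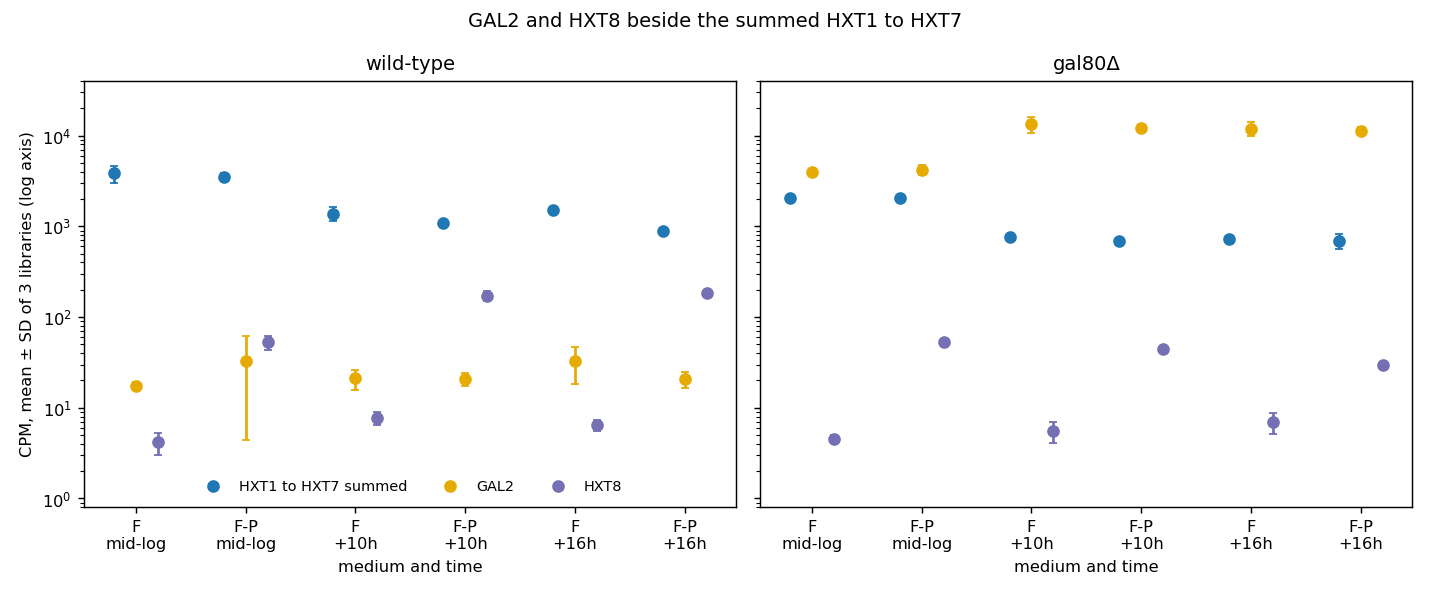
Mean CPM ± SD of 3 libraries (log axis) of *GAL2*, *HXT8* and the sum of *HXT1* to *HXT7* by medium (F, fructose, or F-P, fructose-palatinose) and time, for wild-type (left) and *gal80Δ* cultures (right). *GAL2* lies above the sum in *gal80Δ* cultures and below it in the wild-type, and *HXT8* lies higher in fructose-palatinose than in fructose at every time.

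Of 10 genes of sugar sensing and the Rgt1 pathway, 3 rose and 4 fell from mid-log to +10h in wild-type fructose cultures, with 3 and 3, 4 and 4, and 4 and 2 in wild-type fructose-palatinose, *gal80Δ* fructose and *gal80Δ* fructose-palatinose cultures. Their median log2 fold changes lay between -0.17 and 0.15, beside all-gene medians between 0.02 and 0.06. Of all genes, 55.2%, 45.7%, 52.7% and 50.6% passed in these comparisons. *SNF3*, the sensor of low glucose, rose in all 4 series (1.61 ± 0.12 and 1.23 ± 0.12 in the wild-type, 1.55 ± 0.12 and 1.42 ± 0.12 in *gal80Δ* cultures). *RGT1*, the repressor of *HXT* genes, was lower with palatinose in the wild-type at +10h (-0.73 ± 0.21 SE, adjusted p = 0.020), the only call of the list between media. In each strain comparison 1 gene of the list was higher in *gal80Δ* cultures, the co-repressor *MTH1*, with log2 fold changes from 0.66 to 1.21. *STD1*, its paralog, was lower at +10h and +16h in both media (-0.67 ± 0.20 and -0.95 ± 0.20 in fructose, -0.80 ± 0.20 and -0.79 ± 0.20 in fructose-palatinose).

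Of 10 genes of glucose repression and hexose phosphorylation, 1 to 2 rose and 4 to 5 fell from mid-log to +10h in each series. Among all genes tested, 24.5% to 29.1% rose and 21.2% to 26.0% fell over this interval. Median log2 fold changes of the list lay between -0.54 and -0.28, beside all-gene medians between 0.02 and 0.06. The list thus leaned toward lower levels at +10h. *HXK2*, the main hexokinase of growth on glucose, fell by log2 fold changes of -2.67 ± 0.21 and -1.65 ± 0.20 for the wild-type and -3.76 ± 0.22 and -3.45 ± 0.22 in *gal80Δ* cultures. In the wild-type it was higher with palatinose at +10h (1.06 ± 0.20 SE, adjusted p = 0.00051) and +16h (0.64 ± 0.20 SE, adjusted p = 0.042). *MIG2*, which encodes a repressor related to Mig1, was also higher with palatinose in the wild-type at +16h (2.17 ± 0.37 SE, adjusted p = 0.00019). None of the 10 genes rose in the strain comparisons, and 1, 2 and 2 fell in fructose and 1, 2 and 3 in fructose-palatinose at the successive times, beside 5.97% to 14.3% of all genes called in either direction.

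Of 10 genes for arrestin-type adaptors and their ubiquitin ligase, which serve the endocytosis of plasma membrane transporters, 7, 7, 7 and 6 rose from mid-log to +10h in wild-type fructose, wild-type fructose-palatinose, *gal80Δ* fructose and *gal80Δ* fructose-palatinose cultures, and 0 fell. Of all genes, 29.1%, 24.5%, 28.9% and 27.4% rose in these comparisons. The median log2 fold changes of the adaptor list were 0.86, 0.74, 0.91 and 0.78, against 0.02, 0.02, 0.06 and 0.05 for all genes. *CSR2*, which encodes an adaptor for the endocytosis of high-affinity hexose transporters, rose by 2.33 ± 0.25 and 2.54 ± 0.26 in the wild-type, and it was higher in *gal80Δ* cultures in all 6 strain comparisons, with log2 fold changes from 0.92 to 1.08. *ROG3* was lower with palatinose in the wild-type at +10h (-0.66 ± 0.17 SE, adjusted p = 0.0075), the only call of these adaptors between media.

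The genes whose pattern over the 12 group means was most like that of each member were sought among 2913 genes whose means span at least 1 on the log2 scale. The measure was Pearson's r of log2 CPM, a description over 12 means that share libraries and times. For *HXT5* they were *FMP16* (r = 0.997), *MLS1* (r = 0.997) and *JEN1* (r = 0.997), but 28% of all candidates reached an r of 0.9 with *HXT5*, and 18.9% did with *HXT7*, so these names are not particular to either gene. For the other members between 0% and 5.63% of candidates did. For *HXT7* they were *RPL1B* (r = 0.988), *RPL12A* (r = 0.985) and *RPS31* (r = 0.982), and for *HXT2* *SUI2* (r = 0.955), *NPA3* (r = 0.955) and *GPN3* (r = 0.954). For *HXT6* they were *YKE4* (r = 0.977), *COS8* (r = 0.969) and *IML2* (r = 0.968). For *HXT4* the first was *GAL80* (r = 0.966), and for *HXT3* likewise *GAL80* (r = 0.896), the gene deleted in 6 of the 12 groups, so these values carry the strain difference of *HXT4* and *HXT3* themselves. For *HXT1*, at few counts, the first was *FRE4* (r = 0.942). By Spearman's rho only between 0 and 2 of each member's 3 genes were the same, so the choice of genes depends on the measure.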

How the data were processed

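RNA-seq libraries of 3′ tags (QuantSeq) were made from 36 harvested samples, 3 for each of the 12 groups. Per the study's methods and the submitters' processing notes, the authors trimmed the reads with cutadapt 1.18, aligned them to the R64 genome with HISAT2 2.1.0 and counted them with featureCounts of Subread 2.0.0 on an annotation they adapted, and they deposited raw counts per gene and library without normalization. How tags that match both *HXT6* and *HXT7* were counted was not given in the sources used here. Beside counts, the authors deposited each culture's OD at harvest as measured. The deposited table has 1 other value column per sample, a CPM, which was left unused, since CPM were recomputed from the counts. Groups come from the labels and the columns of the table.

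The fit used edgeR 4.0.16 in R 4.3.3, TMM normalization (factors from 0.793 to 1.19), the default filter over the 12 groups (a cutoff of 1.21 CPM) and a quasi-likelihood test from 1 fit of all 36 libraries, common dispersion 0.0314 and prior degrees of freedom 5.55. The SE of a log2 fold change is its absolute value divided by the square root of the F statistic. Calls needed a change of more than 0.5 on the log2 scale and an adjusted p under 0.05, the study's thresholds, in each of 31 contrasts. The study required both at all 3 time points, whereas a call here holds for 1 contrast alone. Replicates are separate samples per the labels, and p-values measure the spread between them. The procedure was tested on simulated counts. Sequence and motifs were read from the R64 reference with Python 3.11.15. Neither protein nor promoter tables were used.

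Every member was described, and from each of 4 lists of 10 genes up to 4 with the most calls could be named. The members and lists were chosen with earlier results of these data known. Alternatives were DESeq2 1.42.0, library size alone, no filter, 10 counts in every library, only the groups compared, blocks by replicate letter and by culture, leaving out each letter, other fold minimums, a test against the minimum (glmTreat) and summed *HXT6* and *HXT7*. Chosen after seeing the data were the fits without replicate B of wild-type fructose cultures at +10h or replicate C at +16h, the fold changes of the summed copies, and a block within the groups compared. Same-lettered libraries deviated together, every letter's correlation above 0.1, in 3 of 24 pairs of groups: wild-type media at mid-log (r = 0.490), wild-type fructose-palatinose at mid-log and +10h (r = 0.300) and the strains in fructose-palatinose at +10h (r = 0.146). The pairing rests on the letters in the labels alone.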

Additional observations from a re-analysis of the deposited data

Results flagged for a closer look

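The results here differ between strains or media by a test of the difference itself, edgeR's quasi-likelihood test adjusted over all genes tested. *HXT2* responded to palatinose at +16h differently in the strains (log2 difference 1.81 ± 0.25 SE, *gal80Δ* minus wild-type), lower with palatinose in the wild-type, where the groups were apart. Its change from +10h to +16h differed between the media in the wild-type (-1.64 ± 0.25, fructose-palatinose minus fructose) and between the strains in fructose (-1.61 ± 0.26, *gal80Δ* minus wild-type). These 3 results share the wild-type fructose libraries at +16h, of which replicate C had the highest *HXT2* at 431 CPM, and are not independent of each other. In fructose-palatinose from mid-log to +10h the strains differed for *HXT2* (1.33 ± 0.25), *HXT7* (-1.68 ± 0.34) and *HXT6* (-1.28 ± 0.35). With the libraries of 1 letter left out in turn, the interaction of *HXT2* was called in all 3 fits. The differences of time changes of *HXT6* here, and of *HXT2* between the strains in fructose, were called in 0 of them. Those of *HXT2* between the media, and of *HXT2* and *HXT7* here, were called in 1 each. The summed tags of *HXT6* and *HXT7* gave -1.05 ± 0.30 by edgeR (adjusted p = 0.057, not called). The optical density of these cultures moved with strain and medium, and its part in these results was not tested.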

How the results depend on the processing

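Of the counts of member calls, 26 over time stayed within 1.5 times under every alternative. The 4 calls between media became 2 with at least 10 counts in every library, which removes *HXT1* and *HXT5* from the test, and 1 with glmTreat. The 26 calls between strains became 15 with glmTreat. The 1 interaction became 2 with only the groups compared and 2 with DESeq2, the second being *HXT5* at +16h. The 5 differences of time changes became 3 with only the groups compared, 3 with glmTreat and 3 with *HXT6* and *HXT7* summed. Leaving out the libraries of each replicate letter in turn gave between 19 and 22 calls over time, 2 and 4 between media, 17 and 27 between strains, 1 each for the interaction, and 0 and 3 for differences of time changes (6 without replicate C of wild-type fructose cultures at +16h alone). With the sum in place of *HXT6*, the change from mid-log to +10h reversed to -2.33 and -2.09 in the wild-type and to -2.93 and -3.14 in *gal80Δ* cultures, by construction, since *HXT7* held most of the tags at mid-log.

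A fit blocked by replicate letter changed no call of a member, and the counts stayed at 26, 4, 26, 1 and 5 (over time, between media, between strains, interactions, differences of time changes), and a block within the 3 pairs of groups whose letters deviated together changed none of their members' calls. A block by culture lost 3 calls, *HXT4* from mid-log to +10h in wild-type fructose-palatinose (adjusted p = 0.057), *HXT6* from +10h to +16h in wild-type fructose cultures (0.086) and its difference between strains in fructose-palatinose from mid-log to +10h (0.075), which left 24 over time and 4 differences of time changes. Library size alone lost 3 calls and added 2, and DESeq2 lost 0 and added 2. Without replicate B of wild-type fructose cultures at +10h, 2 calls were lost and 3 added, and without replicate C at +16h, 2 were lost and 2 added. The cause was not tested.

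Over all genes, calls in the 3 interactions numbered 128, and 222 with DESeq2, those in differences of time changes 473, and 830 with DESeq2 and 283 with only the groups compared, and those between media 1001, and 601 with only the groups compared. With glmTreat they were 55, 105 and 186 in that order, 454 of 3053 between strains and 7680 of 12857 over time. A minimum log2 fold change of 1 left 266 differences of time changes, 268 calls between media, 651 between strains and 6013 over time. Leaving out a letter gave 41 to 78 interactions, 59 to 245 differences of time changes, 364 to 863 calls between media and 922 to 2169 between strains. With library size alone the share of calls that were higher at +10h than at mid-log went from 52.8% to 73.3% in wild-type fructose cultures, and the median of all genes moved by 0.17 in the interaction at +10h. TMM-scaled CPM moved 18 of the 84 group means of members by more than 1 SD, by ratios from 0.893 to 1.20. Depth limits *HXT1*, with 1 to 39 counts per library.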
